A study of Chlorocebus aethiops with 12 samples.

Results

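FKBP5 and 5 other co-chaperones of the glucocorticoid receptor (GR) were measured on 12 arrays of COS-1 RNA. The members were the array's non-control probes for 7 human transcript accessions, 2 of FKBP5 and 1 each of FKBP4, PPID, PTGES3, STIP1 and BAG1. They are FKBP5 (NM_004117 and NM_001145775), FKBP4 (NM_002014), PPID (NM_005038), PTGES3 (NM_006601), STIP1 (NM_006819) and BAG1 (NM_004323). For 6 of these accessions 13 probes were found among the 41000 probes of the array, and none was found for NM_001145775, so that FKBP5 is represented by NM_004117 alone. A filter on dim probes kept 12 of the 13 probes, and all 6 accessions were among the 23757 tested.

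COS-1 is an established line derived from African green monkey kidney, commonly transfected to study steroid receptors because it holds little GR of its own. One set of cells received GR together with MDFIC, a protein named for its likeness to an inhibitor of MyoD-family factors, and the other received GR alone. At 48 h after transfection, cells were given 100 nM dexamethasone (Dex), a synthetic glucocorticoid, or vehicle for 6 h, in medium with charcoal-stripped serum. The 4 groups, each with 3 biological replicates, were GR+MDFIC cells with Dex, GR+MDFIC cells with vehicle, GR cells with Dex and GR cells with vehicle. All groups carried the transfected GR, and no group without it was analysed here. The comparisons address whether the co-chaperones respond to GR activation and whether MDFIC alters that response.

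Before it binds hormone, GR is held in a complex with the chaperone HSP90 and a changing set of co-chaperones. STIP1 (also called HOP) bridges HSP70 and HSP90 while the receptor is handed over, and PTGES3 (p23) then stabilises the mature complex that binds steroid. Immunophilins with TPR repeats (FKBP5, FKBP4 and PPID) dock on HSP90 in the late complex. FKBP5 lowers the receptor's affinity for hormone, whereas FKBP4 favours its transport to the nucleus. FKBP5 is also a known glucocorticoid-induced gene in many human tissues, so that it forms a negative feedback on GR. BAG1 is a nucleotide exchange factor of HSP70 that can hold back GR activity.

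The array carries probes for human transcripts, so that each probe reads a monkey RNA through a human sequence and levels of different probes cannot be set against each other. Levels are log2 values of the processed signal after subtracting the 75th percentile of the same array. The share of spots well above background was 70.3% to 75.2% per array. The labelled cell type and the transfected genes were not checked here, since accessions outside the members carry no gene name. No spot of a member probe was saturated or marked as an outlier. The arrays lay on 3 slides. GR cells occupied slide 1 (1 Dex array and all 3 vehicle arrays) and part of slide 2 (2 Dex arrays). GR+MDFIC cells occupied slide 3 (all 3 Dex arrays and 1 vehicle array) and the rest of slide 2 (2 vehicle arrays). Slide 3 was dimmer, with a mean 75th percentile signal of 386 against 868 on slide 2 and 850 on slide 1. Each Dex effect is therefore also given with slide as a block, which for GR cells uses the arrays of slide 1 and for GR+MDFIC cells those of slide 3.

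FKBP5 rose with Dex in both kinds of cells. In GR+MDFIC cells the probe A_23_P111206 read 1.85, 1.83 and 1.88 with Dex, against 0.81, 0.95 and 0.80 with vehicle. In GR cells the same probe read 1.80, 1.71 and 1.71 with Dex, against 0.88, 0.90 and 0.88 with vehicle. Every Dex array lay above every vehicle array, and the values within each group were close together. In RNA from whole cultures, a change in a few cells and a smaller change in all cells cannot be told apart, nor can fewer cells of a type and less RNA per cell. The fold was 2.00 in GR+MDFIC cells (95% interval 1.85 to 2.16) and 1.81 in GR cells (95% interval 1.67 to 1.95).

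On the log2 scale the Dex effect on FKBP5 was 0.999 ± 0.050 in GR+MDFIC cells (SE, n = 3 against 3, limma, adjusted p = 2.3e-06). It was 0.85 ± 0.050 in GR cells (SE, n = 3 against 3, limma, adjusted p = 8.55e-06). A block for slide gave 1.05 in GR+MDFIC cells and 0.92 in GR cells (limma, adjusted p = 0.000207 and 0.000536 in that order), in a fit that called 3.41% and 3.56% of all accessions. Within slide 3 the 3 Dex arrays of GR+MDFIC cells averaged 1.86 and the 1 vehicle array read 0.80. Within slide 1 the 1 Dex array of GR cells read 1.80 and the 3 vehicle arrays averaged 0.89. The call held in all 26 alternatives run for GR+MDFIC cells and all 27 run for GR cells. Some of these left the FKBP5 values as they were, such as the deposited value table and outlier spots kept. The alternatives are thus not independent checks. The log2 effect lay between 0.95 and 1.05 in GR+MDFIC cells and between 0.76 and 0.92 in GR cells.

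A second probe of the same accession, A_24_P38081, gave a dim but measurable signal on all 12 arrays. In GR+MDFIC cells it read -3.49, -3.75 and -3.26 with Dex, against -4.66, -4.38 and -4.75 with vehicle. In GR cells it read -3.61, -3.36 and -3.57 with Dex, against -4.34, -4.71 and -3.95 with vehicle. The groups again did not overlap, and the replicates spread more widely than for the brighter probe. With every probe tested on its own, it rose by 1.10 ± 0.19 in GR+MDFIC cells and by 0.82 ± 0.19 in GR cells (SE, limma, adjusted p = 0.00572 and 0.0329 in that order). Neither effect of this dim probe passed with a slide block, at 1.25 and 0.72 (limma, adjusted p = 0.0685 and 0.262 in that order).

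**Figure D1:**
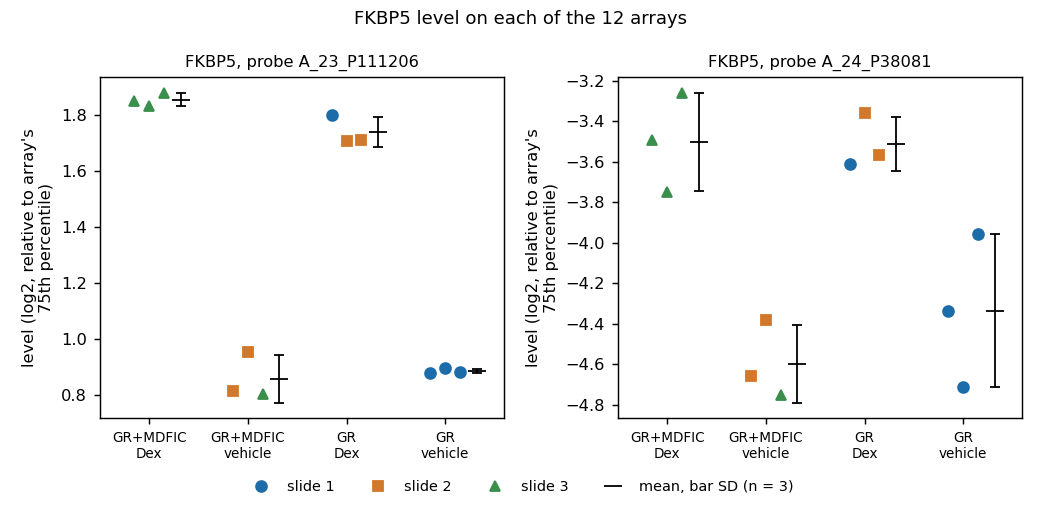
Level of FKBP5 (log2 of signal over the 75th percentile) on each array for its 2 probes, by group, with a colour and symbol for each slide; the black line is the mean and its bar the SD of 3 arrays. On probe A_23_P111206 the Dex arrays lie between 1.71 and 1.88 and the vehicle arrays between 0.80 and 0.95, with no overlap, and the dim probe A_24_P38081 shows the same separation with a wider spread.

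Among all accessions tested, 6.6% rose with Dex in GR+MDFIC cells and 4.4% in GR cells. The rise of FKBP5 was above the median of those rises, 1.37-fold in both kinds of cells, and below the largest of them. Of all accessions tested, called or not, 4.11% had a larger log2 effect than FKBP5 in GR+MDFIC cells and 1.85% in GR cells. In GR+MDFIC cells 211 of the 1568 called rises were larger than that of FKBP5, and in GR cells 205 of 1046 were larger. The number of called rises ranged from 1026 to 3427 in GR+MDFIC cells and from 693 to 1086 in GR cells when each array was left out. The highest of these came without GR+MDFIC vehicle replicate 3 in both. The replicates of the FKBP5 probe were tight, with a pooled SD within groups of 0.052 against a median of 0.11 over all accessions tested.

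**Figure D2:**
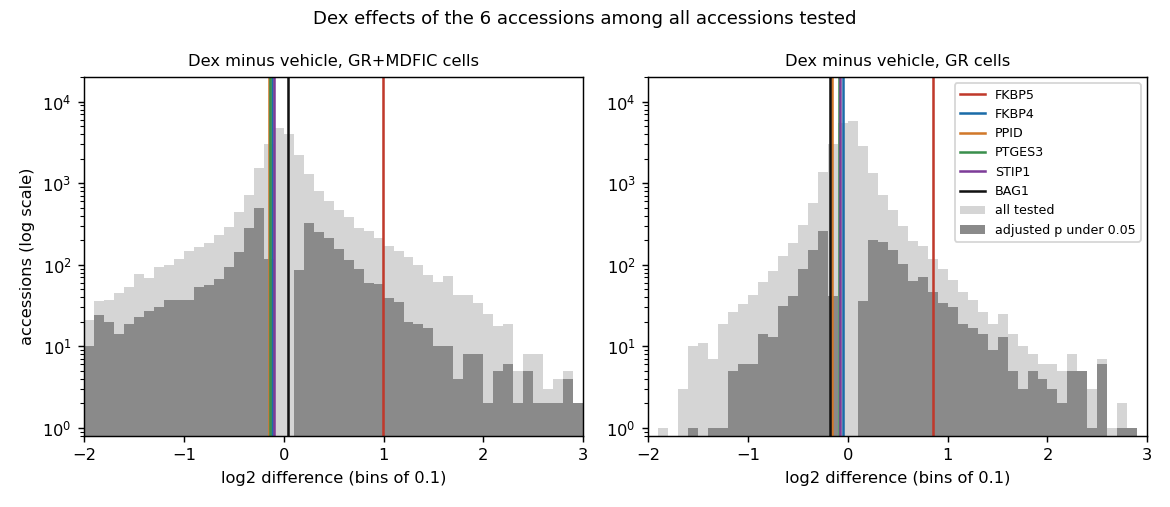
Number of accessions (log scale) in bins of 0.1 by their Dex minus vehicle difference on the log2 scale, for GR+MDFIC cells and GR cells; light bars are all accessions tested, dark bars those with an adjusted p under 0.05, and the axis ends at -2 and 3, and effects beyond it are not drawn. The coloured lines mark the 6 accessions, with FKBP5 at 0.999 and 0.85 and the other 5 between -0.18 and 0.045.

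For the other 5 accessions, on the probes that stand for them, folds lay between 0.905 and 1.03 in GR+MDFIC cells and between 0.885 and 0.965 in GR cells. None passed the test in either kind of cells with all 12 arrays (limma). At an unadjusted p under 0.05, FKBP5 and 1 of the other 5 were counted in each, PTGES3 in GR+MDFIC cells and BAG1 in GR cells, where 32% and 19% of all accessions met that threshold. Of all 6 accessions, 1 was called in GR+MDFIC cells, where 13.5% of all accessions were called, and 1 in GR cells, where 7.17% were. Those shares depended on single arrays. The first was 26.6% without GR+MDFIC vehicle replicate 3, which leaves no slide with both Dex and vehicle arrays of GR+MDFIC cells, and 7.64% without GR+MDFIC vehicle replicate 1. It was also over 1.5 times lower without GR+MDFIC vehicle replicate 2 or GR+MDFIC Dex replicate 3. The second was 4.52% without GR vehicle replicate 3, and over 1.5 times lower also without GR vehicle replicate 1 or GR Dex replicate 1 or 2. With so few accessions, 1 call is not read as a property of the group. The highest upper bound of the 95% intervals of the 5 was 1.12-fold in GR+MDFIC cells and 1.07-fold in GR cells, below the lower bound of FKBP5 in each.

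Whether FKBP5 changed unequally to the others was tested on the difference of their log2 levels within each array, which a shift of a whole array does not affect. Averaged over both kinds of cells, the Dex change of FKBP5 exceeded that of PPID by 1.08, of PTGES3 by 1.04, of STIP1 by 1.02, of FKBP4 by 1.01 and of BAG1 by 0.99 on the log2 scale. In all 5 pairs the Dex arrays did not overlap the vehicle arrays in either kind of cells. An exact permutation test of the Dex and vehicle labels within each kind of cells gave p = 0.005 for each pair (two-sided, n = 3 against 3 in each), the smallest it can give over 400 arrangements. Benjamini-Hochberg adjustment over the 5 pairs left it at 0.005. All 5 pairs share the FKBP5 values, which already separated Dex from vehicle arrays, so that they are not 5 independent tests. They add little to the FKBP5 result itself. The permutation test exchanges labels across slides, over which Dex and vehicle arrays are unevenly spread. With labels exchanged only within slides 1 and 3, added after seeing the data, the differences lay between 1.02 and 1.15 and the exact p was 0.0625 for each pair, the smallest that 16 arrangements can give.

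FKBP4, the FKBP5 relative with the opposite known role in receptor transport, had no detectable Dex response. Its probe A_23_P128372 read 1.88, 1.82 and 1.74 with Dex in GR+MDFIC cells, against 1.87, 2.02 and 1.90 with vehicle. In GR cells it read 1.90, 1.80 and 1.78 with Dex, against 1.98, 1.84 and 1.81 with vehicle. The groups overlapped in both kinds of cells. The fold was 0.921 in GR+MDFIC cells (95% interval 0.831 to 1.02) and 0.965 in GR cells (95% interval 0.871 to 1.07), with limma adjusted p of 0.241 and 0.773 in that order. Its other probe, A_32_P71788, gave log2 effects of -0.12 ± 0.093 and -0.021 ± 0.093 in the same order (SE).

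PPID, a cyclophilin that docks on HSP90 at the same site as the FKBPs, had lower means with Dex on both of its probes. On the probe that stands for the accession, A_23_P386411, GR+MDFIC cells read 2.89, 2.99 and 3.02 with Dex, against 3.16, 3.02 and 3.15 with vehicle. GR cells read 2.98, 2.85 and 3.11 with Dex, against 3.08, 3.1 and 3.22 with vehicle. The highest Dex array and the lowest vehicle array of GR+MDFIC cells both read 3.02, and the groups of GR cells overlapped. The log2 effect was -0.14 ± 0.074 in GR+MDFIC cells and -0.16 ± 0.074 in GR cells (SE, limma, adjusted p = 0.215 and 0.301 in that order).

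The dimmer PPID probe, A_23_P45022, separated more clearly. It read -2.54, -2.77 and -2.80 with Dex in GR+MDFIC cells, against -2.35, -2.46 and -2.31 with vehicle. In GR cells it read -2.64, -2.68 and -2.74 with Dex, against -2.38, -2.49 and -2.38 with vehicle. No Dex array reached the lowest vehicle array in either kind of cells. Tested on its own, this probe fell by 0.33 ± 0.075 in GR+MDFIC cells (SE, limma, adjusted p = 0.02, where 12.9% of all probes were called). In GR cells its log2 effect was -0.27 ± 0.075 and missed the threshold (SE, limma, adjusted p = 0.0649, where 6.75% were called). Under the slide block the effects were -0.40 and -0.23, and neither passed (limma, adjusted p = 0.124 and 0.362). With the mean of both probes standing for PPID, it fell by 0.24 in GR+MDFIC cells and by 0.21 in GR cells (limma, adjusted p = 0.0188 and 0.0432). The call for PPID therefore depended on the probe.

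PTGES3, the p23 co-chaperone, had 4 probes. The probe that stands for it, A_32_P30813, read 6.00, 5.99 and 5.94 with Dex in GR+MDFIC cells, against 6.17, 6.14 and 6.04 with vehicle. In GR cells it read 6.06, 6.02 and 6.01 with Dex, against 6.12, 6.11 and 6.14 with vehicle. The groups did not overlap in either kind of cells, at small distances. The log2 effect was -0.14 ± 0.043 in GR+MDFIC cells and -0.089 ± 0.043 in GR cells (SE, limma, adjusted p = 0.0555 and 0.306 in that order). Blocking by slide gave -0.068 and -0.063. The vehicle arrays of GR+MDFIC cells differed by slide, with 6.04 on slide 3 and a mean of 6.15 on slide 2. The part of the slide in this small difference was not tested beyond that block. Without that slide 3 vehicle array the GR+MDFIC effect was -0.18 and passed (limma, adjusted p = 0.0132), but all Dex arrays of GR+MDFIC cells were then on slide 3 and both vehicle arrays on slide 2, so that Dex and slide cannot be told apart. The adjusted p under the slide block was 0.67 (limma).

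Of the other PTGES3 probes, A_24_P343869 gave log2 effects of -0.21 ± 0.13 in GR+MDFIC cells and -0.00014 ± 0.13 in GR cells (SE). A_24_P263623 gave -0.12 ± 0.10 and -0.010 ± 0.10 in the same order (SE). Neither passed the test in either kind of cells. The remaining probe, A_32_P114896, was well above background on 1 of the 12 arrays, a GR Dex array, and was left out of the tests. It is the only probe of the 13 that did not pass the filter.

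STIP1, which links HSP70 to HSP90, overlapped between Dex and vehicle on the probe that stands for it. This probe, A_32_P92783, read 3.05, 2.91 and 2.88 with Dex in GR+MDFIC cells, against 2.99, 3.09 and 3.05 with vehicle. In GR cells it read 2.95, 2.97 and 2.76 with Dex, against 3.08, 2.94 and 2.90 with vehicle. The fold was 0.935 in GR+MDFIC cells (95% interval 0.832 to 1.05) and 0.946 in GR cells (95% interval 0.842 to 1.06). Its other probe, A_24_P327815, gave log2 effects of -0.061 ± 0.086 and -0.11 ± 0.086 in the same order (SE).

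BAG1 was the one co-chaperone whose Dex effects differed in sign between the cells. Its single probe, A_23_P146654, read 2.50, 2.57 and 2.51 with Dex in GR+MDFIC cells, against 2.49, 2.40 and 2.56 with vehicle, and these groups overlapped. In GR cells it read 2.42, 2.39 and 2.39 with Dex, against 2.59, 2.61 and 2.53 with vehicle, and these groups did not overlap. The log2 effect was 0.045 ± 0.050 in GR+MDFIC cells and -0.18 ± 0.050 in GR cells (SE, limma, adjusted p = 0.565 and 0.0682 in that order). With slide as a block the effects were -0.034 in GR+MDFIC cells and -0.16 in GR cells (limma, adjusted p = 0.914 and 0.288). The sign in GR+MDFIC cells thus turned. Under that block FKBP4 differed in sign on the probe that stands for it, at -0.091 in GR+MDFIC cells and 0.023 in GR cells. The GR call of BAG1 was gained with an intensity trend and robust variance (limma, adjusted p = 0.0352) and without GR+MDFIC vehicle replicate 2 or 3 (limma, adjusted p = 0.0458 and 0.0495).

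**Figure D3:**
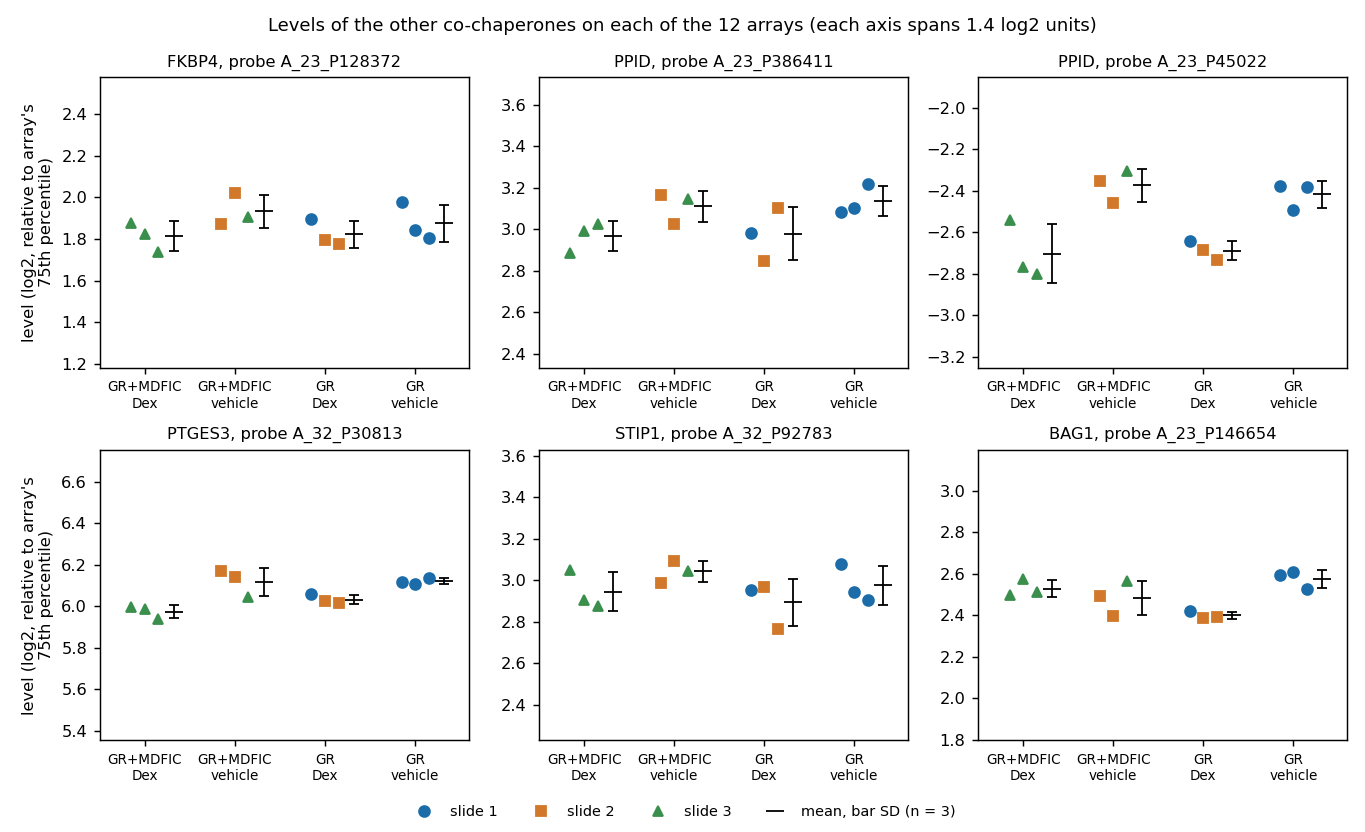
Levels (log2 of signal over the 75th percentile) of FKBP4, PPID, PTGES3, STIP1 and BAG1 on each array, with both PPID probes and 1 probe for each other gene, by group; colour and symbol give the slide, the black line the mean and its bar the SD of 3 arrays. Every panel spans 1.4 log2 units, and all Dex to vehicle differences are small on that scale, with the clearest separation on PPID probe A_23_P45022.

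By the count of groups that do not overlap, FKBP5, PPID and PTGES3 separated in GR+MDFIC cells, where 32.2% of all accessions did, with PPID apart by less than the rounding of its values. FKBP5, PTGES3 and BAG1 separated in GR cells, where 26.2% did. Outside FKBP5, and without a slide block, 9 of 10 probes had a negative Dex effect in GR+MDFIC cells and 10 of 10 in GR cells. With slide as a block, both FKBP4 probes turned positive in GR cells, at 0.023 (A_23_P128372) and 0.0998 (A_32_P71788). So did the STIP1 probe A_24_P327815 in GR cells, at 0.063. Under that block the other probes outside FKBP5 stayed negative in GR cells, and all were negative in GR+MDFIC cells. Probes of 1 gene are not independent, and all probes share the arrays and their scaling. The median log2 effect of the 6 accessions was -0.11 in GR+MDFIC cells and -0.084 in GR cells, against -0.0070 and 0.0074 over all accessions tested. The median size of the effect regardless of sign was 0.13 and 0.12 for the 6, against 0.15 and 0.11 over all, in the same order.

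No effect of MDFIC on the Dex response was detectable for any of the 6. The difference of the Dex effects, GR+MDFIC minus GR, was 0.14 ± 0.070 for FKBP5 (SE, limma, adjusted p = 0.527), and under the slide block it was also 0.14. As a ratio of folds it was 1.10, with a 95% interval from 0.991 to 1.23. A response of FKBP5 in GR+MDFIC cells up to 1.23 times that in GR cells is thus within the interval. For BAG1 the difference was 0.22 ± 0.070 (SE, limma, adjusted p = 0.497), and under the slide block 0.12 ± 0.094. For FKBP4, PPID, PTGES3 and STIP1 it lay between -0.068 and 0.013. None of the 6 was called, where 0.0589% of all accessions were, and 1 of the 6, BAG1, had an unadjusted p under 0.05 in limma, where 9.85% did. The 0.0589% stands for 14 accessions, and the number called ranged from 2 to 1797 when each array was left out. The highest came without GR+MDFIC vehicle replicate 3, which leaves no slide with both Dex and vehicle arrays of GR+MDFIC cells. Dex and slide cannot be told apart there. The next, 95, came without GR+MDFIC Dex replicate 2. None of the 6 was called with any array left out.

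**Figure D4:**
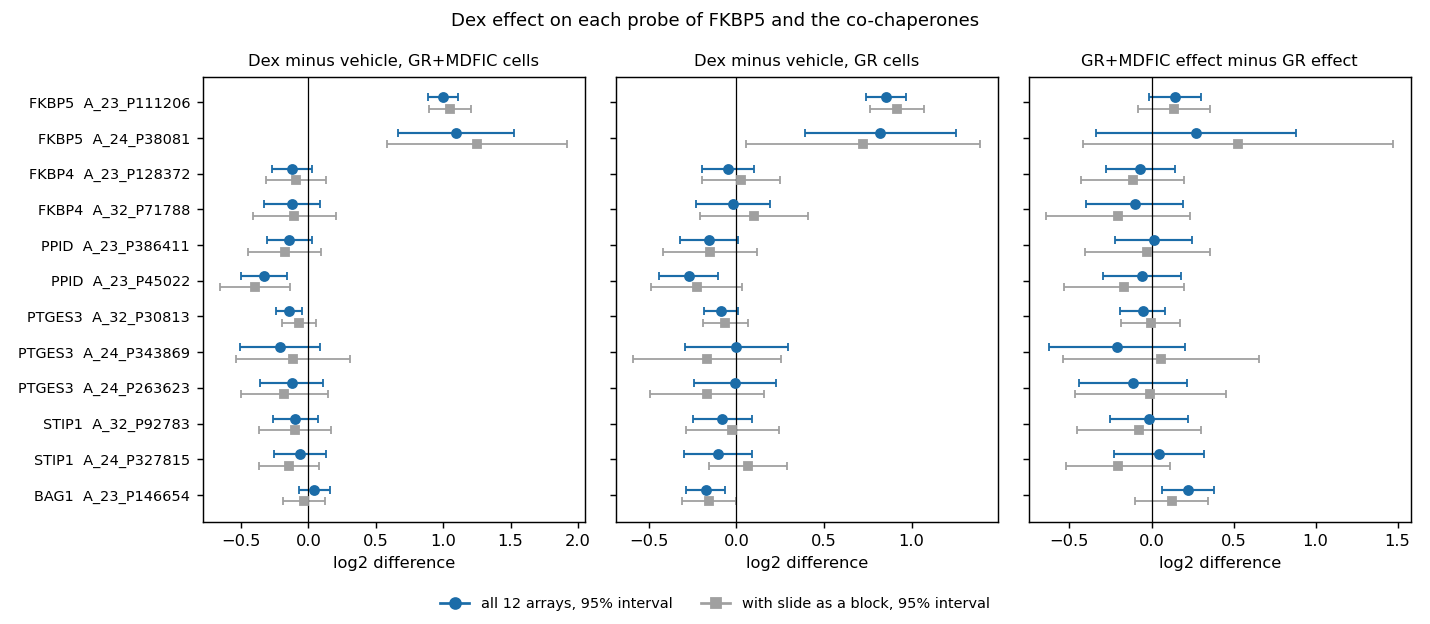
Dex minus vehicle difference on the log2 scale for the 12 probes tested, in GR+MDFIC cells, in GR cells, and the difference of both effects; blue circles are the fit on all 12 arrays, grey squares the fit with slide as a block, and bars are 95% intervals. Both FKBP5 probes lie to the right of 0 in the first 2 panels, the other probes lie between -0.33 and 0.045 on all 12 arrays, and in the last panel the intervals from all 12 arrays cross 0 for every probe but BAG1, whose interval crosses 0 with slide as a block.

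With vehicle, no effect of MDFIC on the level of the co-chaperones was detectable. All vehicle arrays of GR cells lay on slide 1 and those of GR+MDFIC cells on slides 2 and 3. No slide thus held both sides of this comparison. FKBP5 averaged 0.86 ± 0.085 in GR+MDFIC cells and 0.89 ± 0.0080 in GR cells with vehicle (SD, n = 3). The fold was 0.98, with a 95% interval from 0.907 to 1.06. The folds of the other 5 lay between 0.938 and 1.05, none of the 6 was called, where 0.884% of all accessions were, and 0 had an unadjusted p under 0.05 in limma, where 17.6% did. The share called ranged from 0.345% without GR vehicle replicate 3 to 2.38% without GR+MDFIC vehicle replicate 3. With slide as a block the log2 difference was 0.090 ± 0.087 for FKBP5 (SE, limma, adjusted p = 0.757). For the other 5 it then lay between -0.10 (BAG1) and 0.18 (FKBP4), with limma adjusted p from 0.655 to 0.956. On the probes that stand for the accessions no groups were separate, where 22.1% of all were. The other FKBP4 probe, A_32_P71788, was higher in GR+MDFIC cells without overlap, at 1.12-fold (limma, adjusted p = 0.389).

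With Dex, FKBP5 averaged 1.86 ± 0.024 in GR+MDFIC cells and 1.74 ± 0.053 in GR cells (SD, n = 3). The groups did not overlap, and the fold was 1.08, with a 95% interval from 1.002 to 1.17. It did not pass the adjusted test (limma, adjusted p = 0.192). BAG1 was likewise higher without overlap at 1.09-fold (limma, adjusted p = 0.148), and PTGES3 lower without overlap at 0.961-fold (limma, adjusted p = 0.448). Such separation was found for 32.2% of all accessions. None of the 6 was called, where 5.54% were, and 2 of the 6, FKBP5 and BAG1, had an unadjusted p under 0.05 in limma, where 24.7% did. The 1317 calls behind the 5.54% fell to between 90 and 115 without any 1 of the GR Dex arrays and to 48 with slide as a block, against 3106 without GR+MDFIC vehicle replicate 3. All Dex arrays of GR+MDFIC cells lay on slide 3 and none of GR cells did, so that no slide held both sides of this comparison. The slide block, which links the slides through arrays of both kinds of cells, gave log2 differences of 0.23 ± 0.087 for FKBP5, 0.020 ± 0.087 for BAG1 and 0.066 ± 0.071 for PTGES3 (SE, limma, adjusted p = 0.723, 0.976 and 0.89 in that order).

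Several transcripts followed FKBP5 closely over the 12 arrays. The highest correlations of log2 level with FKBP5 were those of the accessions THC2733814 (Pearson r = 0.997) and NM_153690 (r = 0.996). Neither accession carries a gene name here. Both rose with Dex in GR+MDFIC cells, by 1.05 and 1.76 on the log2 scale, and in GR cells, by 0.91 and 1.39. They were picked for their likeness to FKBP5 on these same arrays, so a rise with Dex followed from the choice. FKBP5 itself separated all Dex arrays from all vehicle arrays, so these correlations describe mostly that one step. Among the members, the correlation with FKBP5 was -0.84 for PTGES3, -0.73 for PPID, -0.51 for FKBP4, -0.45 for STIP1 and -0.39 for BAG1.

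The Dex effects were also averaged over GR+MDFIC and GR cells, a comparison chosen after seeing the data, in which 17.9% of all accessions were called (8.92% with slide as a block). FKBP5 rose 1.90-fold (limma, adjusted p = 1.76e-07). PTGES3 fell by 0.12 ± 0.030 on the log2 scale (SE, limma, adjusted p = 0.0266), and its effect was -0.066 with slide as a block (limma, adjusted p = 0.365). Its call was lost in 10 of 26 alternatives, among them the mean of its probes and no filter on dim probes. The other losses came without GR+MDFIC Dex replicate 3, GR+MDFIC vehicle replicate 1 or 2, GR Dex replicate 2, or GR vehicle replicate 1, 2 or 3 (limma, adjusted p from 0.0503 to 0.0667).

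PPID on its standing probe averaged -0.15 ± 0.053 over both kinds of cells (SE, limma, adjusted p = 0.0822). Its dimmer probe A_23_P45022, tested on its own, fell by 0.30 ± 0.053 (SE, limma, adjusted p = 0.0039, where 17.5% of all probes were called). On that probe all 6 Dex arrays read below all 6 vehicle arrays. Blocked by slide it was at -0.31 and did not pass (limma, adjusted p = 0.0509). FKBP4, STIP1 and BAG1 averaged -0.085, -0.089 and -0.066, and none of them passed (limma, adjusted p from 0.235 to 0.283).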

How the data were processed

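Total RNA (500 ng, Cy3-labelled, per the labels) was hybridised to 1-colour arrays, 1 file for each of 12 samples. The deposited values were intensities. Per the file headers, Agilent Feature Extraction (12.0.0.7 on slides 1 and 2, 12.0.3.1 on slide 3, with a different scanner) subtracted background and detrended the processed signal, with no scaling between arrays. Other deposited values were flags of 0 or 1 per spot, per the file headers. The deposited value table of the series held the same signals (largest difference 0).

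Log2 signals were set relative to the 75th percentile of their array, and outlier-flagged spots were dropped (42 values past the filter, none of a member). A probe was kept if some group had it well above background on each of its 3 arrays and every group had at least 2 unflagged arrays. The probe with the highest mean stood for its accession. Group means over all 12 arrays were fitted with limma 3.58.1 (R 4.3.3), with 8 residual degrees of freedom (6 with slide as a block). Calls used a Benjamini-Hochberg adjusted p under 0.05 over 23757 accessions, or over 30179 probes where a probe was tested on its own. The number of arrays limits precision. The fit was tested on simulated data. Figures used matplotlib 3.10.9 (Python 3.11.15).

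Members and lists were chosen with earlier results of these data known. All tested member probes are named. Of the 5 transcripts most like FKBP5 that were planned to be described, the first 2 are named. Lists of other chaperones, cell markers and the transfected NR3C1 and MDFIC needed gene names and were not analysed here, nor were sequences. Alternatives covered scaling, background, filters, probe choice, blocks, variance models and each array left out.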

Additional observations from a re-analysis of the deposited data

How the results depend on the processing

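The Dex calls of FKBP5 held throughout. The number of member accessions called was 1 in each Dex comparison. It was 2 in both with the mean of an accession's probes (PPID added), where 13.1% and 6.87% of all accessions were called. It was also 2 with an intensity trend and robust variance (PTGES3 added in GR+MDFIC cells, BAG1 in GR cells), where 15.5% and 8.22% were. The main fit called 13.5% and 7.17%, each time for GR+MDFIC cells and then GR cells. Leaving out each array gave 1 to 2 members called in both. It reached 2 without GR+MDFIC vehicle replicate 3 in both, where 26.6% of all accessions were called in GR+MDFIC cells and 7.49% in GR cells, and without GR+MDFIC vehicle replicate 2 in GR cells, where 6.84% were. For MDFIC in Dex it was 0, where 5.54% of all accessions were called. It was 1 with normexp (offset 50, on spot medians) and quantile scaling together, where 9.8% were. FKBP5 was then called at 0.15 (limma, adjusted p = 0.0477, against up to 0.771 under the other alternatives). With vehicle and for the interaction the number of members called was 0 throughout, also without any 1 array. For the mean of the Dex effects it was 2, where 17.9% of all accessions were called. It was 3 under the replicate block and the intensity trend, where 18% and 19.1% were. It was 1 under the slide block or no filter on dim probes, where 8.92% and 10.9% were. Without single arrays it was 1 to 3, where 14% to 26.7% were. PPID gained that call with the mean of probes at -0.23 and with the trend (limma, adjusted p = 0.00292 and 0.0471).

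Replicate numbers do not pair the samples by the labels. Deviations of same-numbered arrays were weakly correlated (18 pairs, r from -0.243 to 0.144, median 0.026, 3 of them over 0.1). Arrays of different numbers gave a similar range (36 pairs, r from -0.233 to 0.227, median -0.0076, 6 of them over 0.1). For 7 arrays the highest correlation was with an array of the same number, and for the rest with one of another number. Whether same-numbered arrays shared a deviation was not tested beyond these values. With the replicate block 1 member was called in each Dex comparison. In that fit 14.1% of all accessions were called in GR+MDFIC cells and 6.78% in GR cells. No member was called for MDFIC in vehicle, MDFIC in Dex or the interaction, where 0.484%, 4.73% and 0.021% of all accessions were. FKBP5 was called in GR+MDFIC cells and in GR cells (limma, adjusted p = 5.75e-05 and 0.000155). The mean Dex effect of PPID passed with that block (limma, adjusted p = 0.049).

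Log2 values near 0 turned sign without a call. With median scaling, the BAG1 Dex effect in GR+MDFIC cells was -0.0026 and the PPID interaction -0.0078. With quantile scaling, MDFIC in Dex was 0.0044 for FKBP4 and 0.027 for PPID, and MDFIC in vehicle 0.0062 for PPID and 0.021 for PTGES3. With normexp and quantile scaling, the interaction was 0.00034 for FKBP4, 0.044 for PTGES3 and 0.0061 for STIP1. MDFIC in Dex was then 0.0025 for FKBP4, 0.11 for PPID and 0.052 for PTGES3, and MDFIC in vehicle 0.047 for PPID and 0.0081 for PTGES3. With the mean of probes, MDFIC in Dex was 0.028 for FKBP4, the interaction -0.022 for PPID and 0.014 for STIP1, and MDFIC in vehicle 0.0097 for PPID and 0.0060 for PTGES3. With slide as a fixed block, Dex was -0.034 for BAG1 in GR+MDFIC cells and 0.023 for FKBP4 in GR cells. MDFIC in Dex was then 0.070 for FKBP4 and 0.066 for PTGES3, MDFIC in vehicle 0.090 for FKBP5 and 0.072 for PTGES3, and the interaction -0.024 for PPID. Without slide 3, MDFIC in vehicle was 0.034 for PTGES3. Leaving out each array, the interaction ranged from -0.052 to 0.076 for PPID and from -0.083 to 0.020 for STIP1. MDFIC in Dex ranged from -0.076 to 0.052 for PPID, from -0.015 to 0.087 for STIP1 and from -0.043 to 0.028 for FKBP4. MDFIC in vehicle ranged from -0.050 to 0.019 for PPID and from -0.029 to 0.034 for PTGES3. The cause of these turns was not tested.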
